A study of Homo sapiens with 3 samples.

Results

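In chromatin of HCT116 cells that expressed Flag-tagged VCP, 1391 of the 5719 peaks listed for the antibody to the Flag tag lay inside the body of a protein-coding gene. A peak was taken when its summit fell inside such a gene and more than 1 kb from every outer end of a protein-coding gene, with genes as in RefSeq on hg38. The rule left out chromosome 8 from 66 Mb, chromosome 10 from 95 Mb and chromosome 17 from 40 Mb, segments of long arms that this line is known to carry in extra copies. The rule uses the position of the summit and no strength or other measured level. HCT116 is a human colorectal cancer cell line, and the series holds 3 libraries from it: 1 precipitated with the Flag antibody, 1 with an antibody to VCP itself, and 1 input without antibody. Per the labels, the cells overexpressed VCP with a Flag tag, were fixed in 1% formaldehyde for 10 minutes, and their chromatin was cut with micrococcal nuclease. Whether the cells were a clone or a mixed population is not given in the sources used here, and the labels name no Flag library from cells without the tag. Each antibody has 1 library, so values below carry counting error only and no test between conditions was possible.

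VCP, also called p97, is a hexameric ATPase of the AAA family that pulls ubiquitin-tagged proteins out of membranes, complexes and chromatin. On chromatin it is known for extracting stalled or finished proteins in replication, DNA repair and transcription, guided by cofactors such as UFD1 and NPLOC4. Gene bodies hold introns, enhancers within introns, and further transcript starts behind the first one, so a peak inside a gene can mark quite different elements. Exons and introns were not told apart here.

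A set of these peaks sat on transcript starts that RefSeq places inside the gene, more than 1 kb from its outer ends. The sequences just upstream of such starts are shown because they are the only part of the peaks for which sequence was at hand, and the peaks chosen are the 5 strongest with a summit in the start window, plus the strongest of the others that the VCP list shared. Each run gives the 250 bases before the start, 5′ to 3′ on the strand of the gene, from RefSeq on GRCh38.p14 (the same build as hg38). Capitals mark a match, on either strand, to one of 7 promoter motifs. They were the GC box of Sp1-type factors with the letters GGGCGG, the motif of ETS factors with the letters CCGGAAG, the TATA box with the letters TATAAA, and the E-box of bHLH factors with the letters CACGTG. The others were the CRE of CREB-type factors with the letters TGACGTCA, the motif of AP-1 factors with the letters TGANTCA (N is any base), and the box of NF-Y with the letters CCAAT. None of these motifs contains another.
THRAP3 (chr1:36224193-36224442, + strand): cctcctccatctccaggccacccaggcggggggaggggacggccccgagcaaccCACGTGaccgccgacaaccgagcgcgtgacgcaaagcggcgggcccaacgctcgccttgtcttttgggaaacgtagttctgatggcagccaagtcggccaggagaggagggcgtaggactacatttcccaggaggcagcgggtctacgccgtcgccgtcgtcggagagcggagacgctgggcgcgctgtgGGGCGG
PSMF1 (chr20:1118352-1118601, + strand): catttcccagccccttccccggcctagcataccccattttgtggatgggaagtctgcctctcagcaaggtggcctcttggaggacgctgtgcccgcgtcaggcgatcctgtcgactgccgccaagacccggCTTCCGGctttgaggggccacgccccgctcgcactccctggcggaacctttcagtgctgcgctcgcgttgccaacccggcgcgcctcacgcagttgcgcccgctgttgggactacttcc
CPAP (chr13:24922862-24923111, - strand): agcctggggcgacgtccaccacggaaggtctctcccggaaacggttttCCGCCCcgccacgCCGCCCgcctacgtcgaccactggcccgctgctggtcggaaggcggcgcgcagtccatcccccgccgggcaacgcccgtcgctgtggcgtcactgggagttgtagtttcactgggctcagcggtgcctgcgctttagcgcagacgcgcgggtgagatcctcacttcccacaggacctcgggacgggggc
PPP1R13L (chr19:45405070-45405319, - strand): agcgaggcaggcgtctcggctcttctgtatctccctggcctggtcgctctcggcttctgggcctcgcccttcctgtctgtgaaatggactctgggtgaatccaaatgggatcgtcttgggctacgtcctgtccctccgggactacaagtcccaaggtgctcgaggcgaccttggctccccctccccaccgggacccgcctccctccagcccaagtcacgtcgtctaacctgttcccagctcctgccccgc
RUVBL1 (chr3:128123813-128124062, - strand): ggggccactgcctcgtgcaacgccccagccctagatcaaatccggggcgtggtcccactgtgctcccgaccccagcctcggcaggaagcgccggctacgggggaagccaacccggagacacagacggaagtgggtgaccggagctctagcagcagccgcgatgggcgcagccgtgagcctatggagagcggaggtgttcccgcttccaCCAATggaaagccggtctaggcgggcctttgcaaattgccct
PIK3R3 (chr1:46132796-46133045, - strand): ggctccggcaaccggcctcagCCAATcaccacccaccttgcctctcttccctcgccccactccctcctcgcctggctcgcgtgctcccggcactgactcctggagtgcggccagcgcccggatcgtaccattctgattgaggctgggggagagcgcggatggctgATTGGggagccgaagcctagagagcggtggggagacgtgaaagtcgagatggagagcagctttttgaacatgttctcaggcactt
The GC content of these 6 stretches lay between 63.2% and 70.0%, and they held 16 to 31 CG dinucleotides each. Peaks were taken for this set when the summit lay between 250 bases upstream and 50 bases downstream of the start, so the choice largely sets where the summits lie. They were at -195 in THRAP3, -84 in PSMF1, -179 in CPAP, -222 in PPP1R13L, -174 in RUVBL1 and -154 in PIK3R3. The PPP1R13L stretch held none of the 7 motifs. These letters describe the stretches and do not show that a factor is bound.

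The gene-body peaks were mostly weak. Fold enrichment, the authors' ratio of summit reads to background, had a median of 3.46 (quartiles 3.08 and 3.86, highest 9.13), and the median number of summit reads was 10 (quartiles 9 and 12, lowest 7). With so few reads, 1 read more or less can move a peak across a threshold. Of the members, 378 had a q of at most 0.05, which is 27.2% (exact 95% interval 24.9 to 29.6), beside 33.8% of all Flag peaks. Flag peaks at gene ends on the same chromosome stretches reached that q in 44.0% of cases (n = 1833, 41.7 to 46.3) and those between genes in 26.0% (n = 1856, 24.0 to 28.1). Median fold enrichment was 3.67 at gene ends and 3.35 between genes. Gene-body peaks lay nearer to the peaks between genes than to those at gene ends in both measures. They made up 27.4% of the 5080 Flag peaks that could be placed on these stretches (26.2 to 28.6), while gene bodies covered 40.3% of the stretches counted, each running from the outermost gene on one side of a chromosome to that on the other.

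The strongest of them was in THRAP3, which encodes a protein of splicing and transcription complexes. It spanned chr1:36223883-36224316, had a fold enrichment of 9.13, a -log10 q of 14.32 and 25 reads (exact Poisson 95% interval 16.2 to 36.9) over a background of 1.85. Its summit lay 16.6 kb into the gene and 195 bp before an inner start, the first sequence shown above. PFKFB3, whose enzyme makes the glycolytic activator fructose 2,6-bisphosphate, had a peak of 21 reads (fold enrichment 6.73, chr10:6163663-6163998) at 18.9 kb from its start, and the nearest inner start was 39079 bp away. PSMF1, a proteasome regulator gene, had the same number of reads and the same fold enrichment (chr20:1118393-1118638), here 84 bp from an inner start. The peaks of THRAP3 and PSMF1 therefore lay near starts in the table used here, and that of PFKFB3 had none listed within 1 kb. DBP, a transcription factor gene of the circadian output, held a peak of 24 reads (fold enrichment 5.99) in a gene of only 7.35 kb. PNRC1, a coactivator of nuclear receptors, held 28 reads over a background of 4.54 (fold enrichment 5.24), with the summit 1.02 kb from its start and so barely inside the rule. CPAP, a centriole assembly gene, LITAF, which encodes a protein of late endosomes and lysosomes, and DHRSX, a dehydrogenase gene in the region shared by the X and Y chromosomes, each had a top peak of 18 reads and a fold enrichment of 6.67. The uncharacterised LOC400499 (19 reads, fold enrichment 7.02) and VCP itself completed the 10 strongest peaks. Of these 10, 3 lay within 1 kb of an inner start.

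Starts inside genes carried many more peaks per base than the rest of the gene bodies. The table of RefSeq starts used here held 4764 such inner starts in 3098 protein-coding genes. Of these starts, 206, or 4.32%, had a gene-body Flag peak within 1 kb. The table lacked chromosome 8 and covered 14251 of the 17403 protein-coding genes with a body under the rule. Inner starts of the other genes could not be found, so the share of peaks near one may be too low. In terms of peaks, 169 of 1361 gene-body peaks off chromosome 8 lay within 1 kb of an inner start (12.4%, exact 95% interval 10.7 to 14.3), while these windows made up 0.704% of the gene-body sequence. The density was 21.4 peaks per Mb inside the windows and 1.07 outside, a ratio of 20.0. Within 250 bp of an inner start it was 51.5 peaks per Mb. Summits gathered on the upstream side, with 107 upstream and 62 downstream of the start within 1 kb, and the median summit was at -109 bp. Even so, 1192 members off chromosome 8 had no listed inner start within 1 kb. These others reached a q of at most 0.05 in 25.7% of cases (23.2 to 28.3), against 37.9% near inner starts (30.5 to 45.6). The share near an inner start was 9.50% among peaks with -log10 q under 0.5 (n = 442, 6.93 to 12.6) and 21.4% at 5 or more (n = 28, 8.30 to 41.0).

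**Figure D1:**
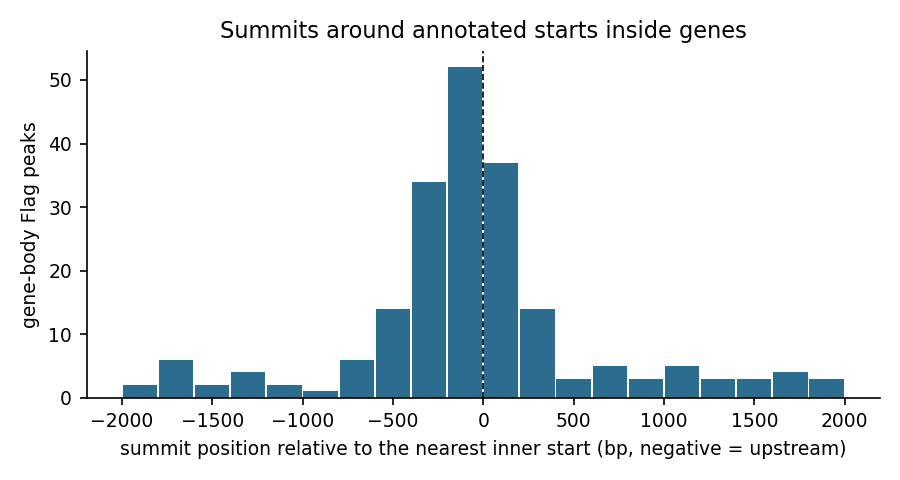
Number of gene-body Flag peaks (y axis) by the position of the summit relative to the nearest annotated start inside a protein-coding gene (x axis, bp in steps of 200, negative values upstream, dashed line at the start). The tallest step, from -200 to 0, holds 52 peaks and the step from 0 to 200 holds 37, while steps beyond 1000 bp on either side hold 2 to 6.

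The 206 inner starts with a peak were richer in GC than the other inner starts. Over the 300-base windows around the start, the median GC content was 68.3% (quartiles 61.8 and 72.3) with a peak and 56.3% (45.7 and 66.3) without (n = 4558). The median number of CG dinucleotides was 28 with a peak and 8 without, and 21 over all 22199 start windows of protein-coding genes. The GC box was found in 73.8% of windows with a peak, 39.0% of inner windows without and 56.3% of all start windows. The ETS motif stood in 15.0%, 5.73% and 12.8% of the same windows, the E-box in 11.7%, 5.70% and 8.34%, and CCAAT in 37.4%, 31.9% and 34.7%. TATAAA went the other way, with 3.40%, 11.8% and 9.47%. Among inner starts AP-1 was also lower with a peak than without (6.80%, 8.78% and 6.15%), with 14 windows behind the first value. CRE was higher with a peak (2.91%, 1.14% and 2.26%), but it was the rarest motif in each set, with 6 windows behind the first value. Windows of starts close to each other overlap, and the sets differ in GC content. The shares were not compared at matched GC content and are given as a description.

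Ends of non-coding genes inside protein-coding ones also had peaks nearby. Within 1 kb of such an end lay 110 members (7.91%, 6.54 to 9.45), on 2.85% of the gene-body sequence, which is 3.36 peaks per Mb against 1.15 elsewhere. Long non-coding RNA genes accounted for 85 of the 110, microRNA genes for 9 and tRNA genes for 3. Among the small RNA genes, the spliceosomal RNA gene RNU4-1 had a summit 20 bp from its end (fold enrichment 4.32, 19 reads), and RN7SL1, the RNA of the signal recognition particle, had one 9 bp away (3.31, 11 reads). A tRNA-Ala gene, TRA-AGC8-1, had a summit at 218 bp (4.03, 14 reads). Inner starts and non-coding ends together took in 242 of the 1361 members off chromosome 8 (17.8%, 15.8 to 19.9), 35 of which were near both.

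Host genes were long. The 1391 peaks fell in 1115 genes, which is 6.41% of the 17403 protein-coding genes that have a body under the rule. The median length of the hosts was 109 kb (quartiles 40.9 and 272), of all genes with a body 27.8 kb (10.9 and 71.4), and of the 2040 genes with a Flag peak at an end 29.9 kb (12.1 and 71.7). Of genes over 500 kb, 47.8% (n = 297, exact 95% interval 42.0 to 53.7) held at least 1 peak, and of genes up to 10 kb 1.30% (n = 4007, 0.971 to 1.70). Per Mb of gene body the order was the opposite. Genes up to 10 kb had 3.60 peaks per Mb, those of 10 to 25 kb 2.172, those of 25 to 50 kb 1.53, and the 4 classes above 50 kb between 1.07 and 1.09, where the intervals overlap. The longest hosts were RBFOX1, a neuronal splicing regulator gene of 2474 kb with 3 peaks, CNTNAP2 (2304 kb, 6 peaks), PTPRD (2299 kb, 1 peak), DMD, the dystrophin gene (2220 kb, 2 peaks), and DLG2 (2173 kb, 1 peak). The shortest were FOXD1, a forkhead factor gene of 2.51 kb, the chorionic gonadotropin gene CGB7 (3.48 kb), CFL1, which encodes the actin-severing protein cofilin (3.51 kb), SP9 (3.55 kb) and TLCD1 (3.59 kb), with 1 peak of 9 to 14 reads each.

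**Figure D2:**
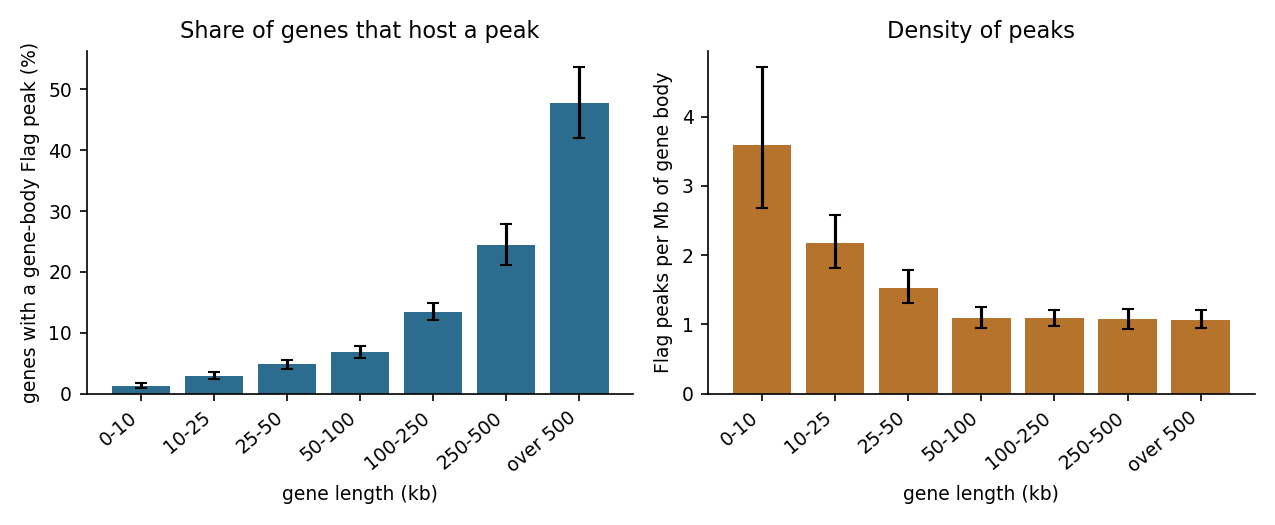
Left, the share of protein-coding genes with at least 1 gene-body Flag peak (%, y axis) by gene length in kb (x axis), with exact binomial 95% intervals. Right, gene-body Flag peaks per Mb of gene body in the same length classes, with exact Poisson 95% intervals. The share rises from 1.30% to 47.8% with length, while the density falls from 3.60 per Mb to 1.07.

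Within the gene, peaks leaned towards the start. The strand of the host was known for 1218 of the 1421 pairs of a peak and a host gene (29 peaks had more than 1 host), and the median summit lay 49.0 kb from the start, at 42.2% of the length. With each gene split into 5 equal sections from its start, the first section held 26.8% of the pairs (24.4 to 29.4) on 19.2% of the gene-body sequence, and the last held 15.5% (13.5 to 17.7) on 19.1%. Density fell from 1.73 peaks per Mb in the first section over 1.26, 1.19 and 1.01 to 1.00 in the last. Density was highest in the first few kb: from 1 to 2 kb behind the start there were 7.69 peaks per Mb (exact Poisson 95% interval 6.29 to 9.32), from 2 to 5 kb 2.11, and beyond 25 kb between 0.900 and 1.12. An inner start lay within 1 kb of 32 of the 104 peak-host pairs at 1 to 2 kb and 29 of the 82 at 2 to 5 kb. Of the 1045 pairs over 1 kb from a listed inner start, the first section held 24.6% and the last 17.3%. When only peaks over 5 kb from every gene end were taken, the first section held 19.0% of pairs. That rule also removes sequence near gene starts, and the share of sequence left in the first section is not given here. The 19.0% therefore cannot be set against the 19.2% above. In genes over 500 kb the first section held 17.4% (n = 235, 12.8 to 22.9) and the median position was 52.1%, while in genes of 50 to 100 kb it held 33.9% (n = 180, 27.0 to 41.3).

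**Figure D3:**
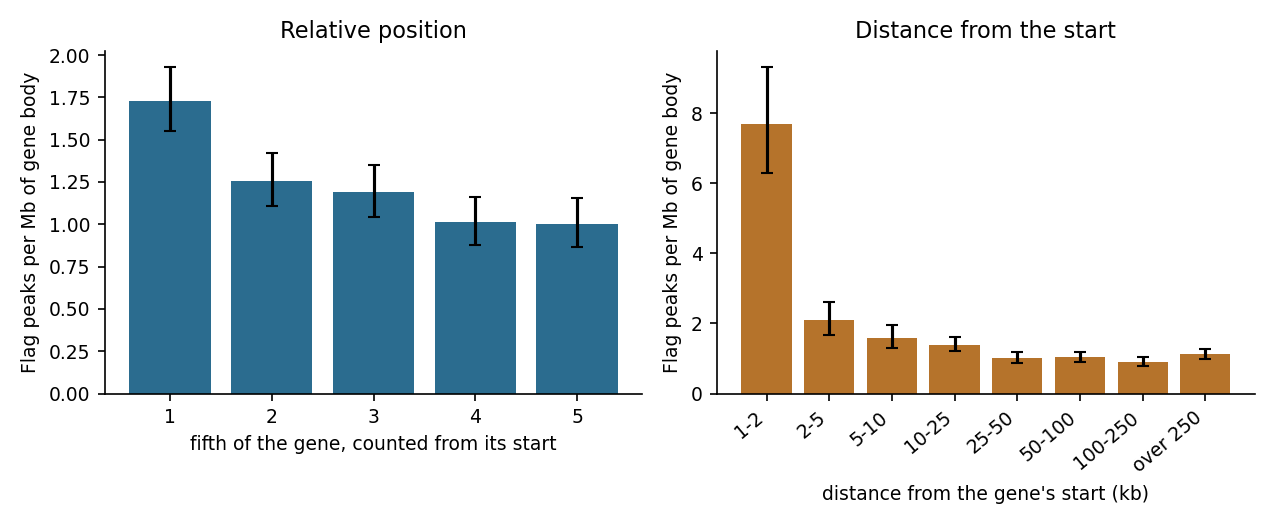
Gene-body Flag peaks per Mb of gene body (y axes) by section of the host gene, 5 equal ones counted from its start (left) and by distance from the start in kb (right), with exact Poisson 95% intervals. Density is highest in the first section, 1.73 per Mb, and from 1 to 2 kb behind the start, 7.69 per Mb, and is between 0.900 and 1.12 beyond 25 kb.

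Some members lay just over the limit of 1 kb from a gene end. They were in FAM193A, 1001 bp from an end (fold enrichment 3.86, 10 reads), TMEM87B at 1003 bp (4.59, 13 reads), PDGFRL at 1004 bp (3.16, 8 reads) and GAS6 at 1007 bp (3.86, 10 reads). Peaks just under the limit, counted as at gene ends and so not members, were in PPP1R3E at 999 bp (4.13, 20 reads), ITPRID2 at 994 bp (3.76, 12 reads), KLF5 at 986 bp (2.63, 10 reads) and MGST3 at 983 bp (3.64, 11 reads). The fold enrichments of these peaks overlap.

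Several peaks in 1 gene were found in 177 host genes, 15.9% of the hosts and 1.02% of all genes with a body. These genes held 475 of the 1391 peaks (34.1%), with 115 genes at 2 peaks, 39 at 3 and 23 at 4 or more. Their median length was 284 kb (quartiles 129 and 782). Neighbouring summits in a gene lay a median of 34.8 kb apart (n = 306 gaps, quartiles 8.36 and 141), and 46 gaps (15.0%) were under 5 kb. When only peaks with a q of at most 0.05 were taken, 27 genes had several.

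PCDH7, which encodes a protocadherin of cell-cell adhesion, held far more peaks than any other host: 23, while the next gene had 8. The gene spans chr4:30720369-31146800 on the forward strand. The first summit lay 46.9 kb behind its start and the last at 370 kb, so the peaks ran over most of its 426 kb but not over its ends, where no Flag peak was listed. The gaps between them ranged from 0.890 to 70.4 kb with a median of 11.2 kb. In the 3 Mb on either side of the gene together 3 Flag peaks were listed, which is 0.5 per Mb against 53.9 per Mb inside the gene. Fold enrichment ranged from 2.69 to 5.62 with a median of 3.51, reads from 8 to 15, and 6 of the 23 peaks had a q of at most 0.05. The strongest spanned chr4:31089917-31090134 (15 reads, 95% interval 8.40 to 24.7). The background of 10 of the 23 peaks was 1.85 reads, the lowest value of the list, and the highest was 2.72. Over all gene-body peaks the quartiles of the background were 1.85 and 2.72, with a median of 2.05. The VCP list had 1 peak in the gene (fold enrichment 3.65, 9 reads), 4864 bp from the nearest Flag summit, so none was shared. None of the 23 was within 1 kb of a listed inner start.

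**Figure D4:**
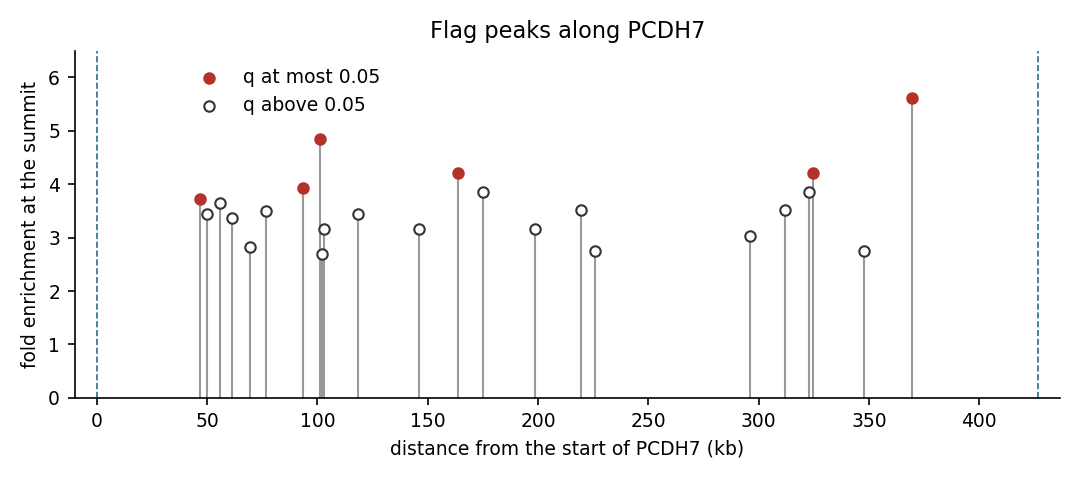
Fold enrichment at the summit (y axis) of the 23 Flag peaks in PCDH7 by distance from the start of the gene in kb (x axis, dashed lines at both gene ends). Filled points have a q of at most 0.05 (6 peaks) and open points a higher q, and the peaks run from 46.9 kb to 370 kb behind the start.

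Among the other genes with many peaks, the positions within the gene differed. MPP7, a scaffold gene of epithelial polarity, had 8 peaks of 8 to 14 reads, 7 of them in the last 25% of the gene. DHRSX had 7, of which 6 lay between 7.61% and 17.2% of its length and 5 had a q of at most 0.05. PHLDB2, which ties microtubules to the cell cortex, had 6 peaks spread over 196 kb (9 to 15 reads), and GSE1, a gene linked to histone deacetylase complexes, had 6 of 10 to 19 reads over 378 kb. The 5 peaks of DLGAP1, a scaffold gene of neuronal synapses, lay within 58.6 kb of a gene of 959 kb, and the strongest had 16 reads (fold enrichment 5.63). PALLD, the actin-bundling palladin, had 5 over 316 kb with a strongest fold enrichment of 5.62. CNTNAP2, a neuronal adhesion gene, and PPP3CA, the catalytic subunit of calcineurin, had 6 each, and CSMD1 had 7. None of the 7 peaks of CSMD1 and none of the 6 of PPP3CA had a q of at most 0.05.

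**Figure D5:**
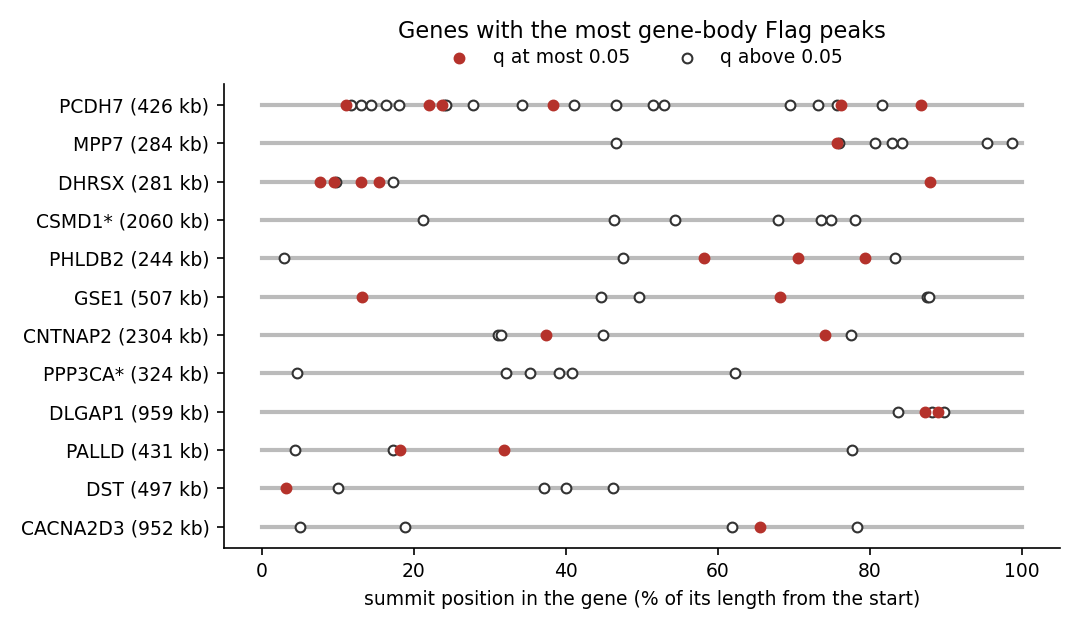
Position of each gene-body Flag peak along the 12 genes with the most peaks (x axis, percent of the gene's length from its start; an asterisk marks genes without a known strand, drawn from the lower coordinate; of 7 genes tied at 5 peaks, the 4 with the highest -log10 q are drawn). Filled points have a q of at most 0.05. PCDH7 holds 23 peaks, the 6 first peaks of DHRSX lie close to its start, and those of DLGAP1 lie together near its end.

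Per Mb of body and with at least 3 peaks, the densest hosts were ZFP90, a zinc finger gene with 3 peaks in 43.0 kb (73.1 per Mb), NTSR1, the neurotensin receptor gene (57.8), PCDH7 (54.2), FA2H, a fatty acid hydroxylase gene (50.1), and SSH1, a phosphatase gene that acts on cofilin (38.8). The 3 peaks in ZFP90 had fold enrichments of 2.81 to 3.16 and none in ZFP90 reached a q of 0.05. In FA2H the 3 summits lay within 5.84 kb and in NTSR1 within 6.79 kb. The closest summits in 1 gene were 458 bp apart in SPTBN1, a spectrin gene, both within 250 bp of an inner start (10 and 11 reads). Next came NXN (512 bp), MAN1A1 (601 bp), FAM241A (679 bp) and VCP (769 bp).

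The VCP gene lies on the reverse strand at chr9:35056064-35072625. Its gene-body peaks were at 78.3% and 73.6% of its length from the start, with 23 reads (14.6 to 34.5) and 12 reads (6.20 to 21.0). Both are far from any listed inner start (51790 and 51021 bp). The cells carried extra VCP sequence, and reads of it cannot be told apart from reads of the gene here.

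Few gene-body peaks were shared with the VCP antibody. An overlap of at least 1 bp was found for 29 members (2.08%, exact 95% interval 1.40 to 2.98), beside 3.46% of all Flag peaks, 5.84% at gene ends (4.81 to 7.01) and 1.40% between genes (0.917 to 2.05). Counted from the other side, 29 of the 457 gene-body peaks of the VCP list overlapped a Flag peak of any class (6.35%, 4.29 to 8.99). The Flag and VCP summits of a shared peak were 80 bp apart at the median (quartiles 39 and 153). Shared peaks were chosen by overlap and the Flag ones had a median width of 255 bp, so the choice largely sets these gaps. Near inner starts 12 of 169 members were shared (7.10%, 3.72 to 12.1) and elsewhere 17 of 1192 (1.43%, 0.833 to 2.27). In all, 17 of the 29 shared peaks were within 1 kb of an inner start or a non-coding end. PSMF1 had 21 Flag reads (13.0 to 32.1) and 12 VCP reads (6.20 to 21.0), with summits 40 bp apart. LOC400499 had 19 and 11 reads, and its summits were 5 bp apart. NR4A1, an immediate early nuclear receptor gene, had 17 and 12 reads at a site 27 bp from the end of a non-coding gene. In DHRSX 18 Flag reads met 9 VCP reads, in ARID3B, an ARID-family factor gene, 14 met 11, in MUC16, the gene of the CA125 mucin, 14 met 9, and in PIK3R3, a regulatory subunit gene of PI3-kinase whose peak also lies in the read-through gene P3R3URF-PIK3R3, 14 met 11. At LSM5, whose protein binds the ends of U6 RNA, both lists gave 13 reads. The autophagy gene ATG101, whose peak lay 207 bp from an inner start, had the most VCP reads of the 29, 19 (11.4 to 29.7), against 11 Flag reads (5.49 to 19.7), and these intervals overlap. Of the VCP peaks named here, those in PSMF1, NR4A1, LSM5 and ATG101 had a q of at most 0.05 (-log10 q 1.69, 1.65, 1.80 and 7.87). Those in DHRSX and MUC16 (0.389 each) and in LOC400499, ARID3B and PIK3R3 (1.13 each) did not.

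Peaks at the gene's own ends were about as frequent among hosts as among other genes, within counting error. Of the host genes, 134 of 1115 also had a Flag peak within 1 kb of either end (12.02%, 10.2 to 14.1), beside 11.7% of all genes with a body. Where the strand was known, 119 of 945 hosts had one at the start (12.6%, 10.5 to 14.9) and 5 at the other end (0.529%, 0.172 to 1.23). Among the genes without a gene-body peak these shares were 11.8% and 0.729% (n = 13306). Within length classes the intervals of hosts and other genes overlapped. Of genes up to 10 kb, 15.4% of hosts (n = 52, 6.88 to 28.1) and 10.5% of the others (9.53 to 11.5) had a peak at an end. Of genes of 10 to 25 kb, these were 15.7% (n = 121, 9.73 to 23.4) and 11.1% (10.2 to 12.1). In the 5 longer classes hosts ranged from 4.23% to 15.0% and the others from 5.16% to 13.4%.

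The hosts were also counted in 17 lists of genes, each set beside the 6.41% of all genes that host a peak and the 1.21 peaks per Mb of all gene bodies. Both depend on gene length. Long genes host more peaks, while density was 3.60 per Mb in genes up to 10 kb and 1.07 to 1.09 above 50 kb. The lists were not compared at matched length. Cell adhesion and cytoskeleton genes had 16 hosts of 52 and 2.48 peaks per Mb (exact Poisson 95% interval 1.59 to 3.70). DST, a giant linker of the cytoskeleton, led with 5 peaks (strongest fold enrichment 5.08, 17 reads), followed by the exchange factor gene ARHGEF12 (4.92, 13 reads) and the kinase gene SRC (4.57, 12 reads). CDH1, CTNND1 and TJP1 of the epithelial junctions also had peaks, with at most 9 reads each. Genes of TGF-beta and BMP signalling had 6 hosts of 30 and 2.92 per Mb (1.26 to 5.75). SMAD3, which carries the signal to the nucleus, had 3 peaks of which 2 had a q of at most 0.05, and SMAD6 and SMAD7, which inhibit it, had 1 each (12 and 9 reads). LTBP1 and LTBP3, which bind latent TGF-beta, and TGFB2 had 1 each. WNT pathway genes had 5 hosts of 43 and 2.02 per Mb (0.871 to 3.97). They were the coactivator gene BCL9L (fold enrichment 5.51, 17 reads), the co-receptor gene LRP5 (5.62, 15 reads), ZNRF3, whose ligase removes WNT receptors (2 peaks, up to 24 reads), the kinase gene TNIK (3 peaks) and TCF7L1 (1 peak).

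Immediate early and stress genes had 7 hosts of 32 and 15.7 peaks per Mb (6.31 to 32.3). Their median length was 7.18 kb, and all genes up to 10 kb had 3.60 per Mb. NR4A1 (fold enrichment 6.06, 17 reads) and SQSTM1, the autophagy receptor gene p62 (4.67, 19 reads), were the strongest, and TXNRD1, KLF6, FOSL2, IER2 and EGR2 had 1 peak each of 9 to 11 reads. Among p53 targets 1 gene of 24 was a host, the apoptosis gene BBC3, with 2 peaks (strongest fold enrichment 5.51, 17 reads). That is 3.52 peaks per Mb (0.426 to 12.7). Autophagy and lysosome genes had 4 hosts of 34 (1.48 per Mb, 0.404 to 3.80), which were SQSTM1, MITF (4.41, 14 reads), ATG101 and UVRAG. RAS, MAPK and PI3K genes had 6 of 59 (1.27 per Mb), among them the receptor genes EGFR (2 peaks, strongest 4.25), EPHA4 (4.21), AXL and MET.

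VCP cofactors had 3 hosts of 29 with 4 peaks (2.48 per Mb, 0.675 to 6.35): RHBDD1, a rhomboid protease that binds VCP, had 2 (strongest fold enrichment 4.57, 16 reads), FAF1, a UBX-domain adaptor, had 1 (4.92, 13 reads), and UBXN8 had 1 (3.51, 9 reads). In the ERAD and unfolded protein response list 1 gene of 28, UGGT1, a sensor of misfolded glycoproteins, had a peak (3.86, 10 reads). That is 0.992 per Mb (0.0251 to 5.53). Ubiquitin ligases had 5 hosts of 40 (1.02 per Mb, 0.333 to 2.39), which were UBR1 (4.57), NEDD4L (3.93), CUL3 (3.86), CUL4B (3.86) and CUL1 (3.16). Chromatin modifiers and remodelers had 9 of 65 (1.33 per Mb), led by the remodeler gene CHD2 with 2 peaks (strongest fold enrichment 4.46). DNA damage and repair genes had 2 of 48 (0.829 per Mb), the recombination genes RAD52 (4.59, 14 reads, 201 bp from an inner start) and RAD51B (3 peaks). Splicing and RNA-binding genes had 3 of 46 (2.19 per Mb, 0.596 to 5.60), HNRNPU, MBNL1 and RBFOX2. Genes of RNA polymerase II transcription and elongation had 1 of 47, the kinase gene CDK7 (3.51, 9 reads), which is 0.267 per Mb (0.00676 to 1.49).

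Genes of common fragile sites, which are very long, had 15 hosts of 30 and 33 peaks, at 0.858 per Mb (0.591 to 1.21), and 1 of them, CNTNAP2, had any peak with a q of at most 0.05. Marker genes of neurons, muscle, blood and endothelium had 11 hosts of 37 and 28 peaks (2.30 per Mb, 1.53 to 3.33), with DLGAP1, TTN (fold enrichment 4.57) and RYR2 (4.04) the strongest. Of the 37, 0 had a Flag peak at an end, beside 11.7% of all genes with a body and 2 of the 30 fragile site genes. Intestinal epithelium genes, the tissue of origin, had 3 hosts of 22 with 4 peaks (5.70 per Mb, 1.55 to 14.6), among them KRT8, an epithelial keratin gene (2 peaks, strongest fold enrichment 4.30), and KLF5 (2.53). Peaks do not measure expression, so the labelled cell type was not checked by these genes.

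By chromosome, gene bodies of chromosome 19 had the highest density, with 92 peaks or 3.22 per Mb (exact Poisson 95% interval 2.60 to 3.95). Chromosome 16 followed with 1.78 (1.38 to 2.26), and the X chromosome had the lowest density among the autosomes and X, 0.387 per Mb (0.233 to 0.604, 19 peaks, 7 of them in DHRSX). The median over chromosomes was 1.15. Median fold enrichment ranged from 3.13 on chromosome 21 to 3.63 on the X chromosome.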

How the data were processed

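The peak lists of the Flag and VCP libraries (1 each) were analysed. The input library was not used here. Bowtie 1.1.2, MACS2 2.1.0, Trimmomatic 0.33 and bcl2fastq 2.17 are named, with build hg38, per the submitters' processing notes. Settings were not stated in these sources. The deposited fold enrichment is the authors' ratio at the summit, the deposited -log10 p and -log10 q are the peak caller's, and the deposited score repeats -log10 p. The lists were called per library, without pooling.

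Reads at the summit and their background were recovered as the whole number whose Poisson tail met the deposited -log10 p within 0.001, with 1 read added to both in the ratio. Genes were the 19866 protein-coding ones of RefSeq on GRCh38.p14, from 59792 rows of which 58961 lay on chromosomes. The table of starts gave strands and inner starts. Densities divide peaks by the gene-body sequence that the rule allows. Shares have exact binomial (Clopper-Pearson) and counts exact Poisson 95% intervals. They cover counting error only, since each antibody has 1 library. PCR copies are not independent molecules, so intervals of reads may be too narrow even for that. Of the 720 gene list symbols 719 matched.

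Named genes were those of the 10 strongest peaks, the 10 genes with most peaks, the 5 densest, the 8 strongest shared peaks, the 5 longest and 5 shortest hosts, the 5 closest pairs, up to 3 hosts per list, and VCP. Further members of a list were named after their values were seen. A few host genes that this rule names are not reported here. The members, lists and rules, and the classes, motifs and inner starts added after the files were read, were chosen with earlier results of these data known. The code was tested on simulated peaks with known hosts and reads. Python 3.11.15, pandas 2.3.3 and scipy 1.17.1 were used.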

Additional observations from a re-analysis of the deposited data

Results flagged for a closer look

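On the 3 chromosome segments that the rule left out, 202 further Flag peaks lay in gene bodies. Of these, 105 were on chromosome 17, 54 on chromosome 8 and 43 on chromosome 10. Their median fold enrichment was 3.31 and their median summit held 12 reads, and 36.6% had a q of at most 0.05.

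On contigs outside the chromosomes 27 Flag peaks were listed, with a median fold enrichment of 2.45 and a median of 20 reads. No gene was assigned to them.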

How the results depend on the processing

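No paired analysis was possible because each antibody has 1 library and no value comes from a test. Of 59 recomputed values for 7 results, 46 stayed within the 95% interval of the reported value, or within 1.5 times for a count, and 13 did not. With only peaks of q at most 0.05, the share of Flag peaks in gene bodies was 22.7%, the share in the first of 5 gene sections 30.6%, the number of genes with several peaks 27, the overlap with VCP peaks 3.97% and the median fold enrichment 4.21. With members over 500 bp from gene ends, the share in gene bodies was 30.9%, the median host length 92.8 kb and the share in the first section 33.3%. With members over 5 kb away these were 21.4%, 160.4 kb and 19.0%. Avoiding the ends of non-coding genes too gave a share in gene bodies of 25.2%, and an overlap of at least 50% of the Flag peak gave 1.22% shared with the VCP list. Leaving out the peaks of PCDH7, an alternative chosen after seeing the data, moved none of the 7 results beyond these bounds. Depth limits single peaks: most rest on 9 to 12 reads.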

Other observations

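Outside the rule for named genes, and chosen after their values were seen, further strong members included TEF, which like DBP encodes a PAR bZIP transcription factor of the circadian output (fold enrichment 5.79, 20 reads), the NF-kappa-B cofactor gene BCL3 (5.27, 21 reads), BCL2L1, the gene of the survival factor BCL-xL (5.60, 17 reads), the dynamin gene DNM2 (5.64, 20 reads) and ANXA2, the annexin A2 gene (5.89, 16 reads). The peak in GABRA2, a GABA receptor gene, held 25 reads over a background of 4.43 (fold enrichment 4.79).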
